A study of Mus musculus with 4 samples.

Results

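The Hox genes of the mouse lie in 4 clusters, and all 39 were counted here in the C2C12 myoblast line with and without overexpression of C/EBPβ. They were found by symbol, as Hoxa, Hoxb, Hoxc or Hoxd followed by a number, among the 49585 genes of the count files, with 11 members in the Hoxa cluster, 10 in Hoxb, 9 in Hoxc and 9 in Hoxd. C2C12 is a myoblast line of C3H mouse origin that proliferates in serum-rich growth medium and fuses into myotubes when serum is withdrawn. Both groups were retrovirally transduced, kept as pools through 7 days in G418 at 1200 μg/ml and left to proliferate for 48 h, in a line kept in DMEM with 10% serum. In 2 libraries the virus carried C/EBPβ, the leucine-zipper factor made from the Cebpb gene, and in the other 2 it was the empty vector pLXSN. The comparison asks which Hox transcripts differ between proliferating myoblasts given C/EBPβ and those given the empty vector. Nothing in the labels states that replicates were separate transductions or cultures. The p-values therefore reflect only how far these libraries differ, which may be technical.

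Hox genes encode homeodomain transcription factors that give cells their position along the body axis and along the limbs. Within a cluster all genes are read in the same direction, and their order follows the order in which they are switched on in the embryo and the place where they act, from low paralogue numbers at the front of the body to high numbers at the rear and in the distal limb. Cultured cells commonly keep the Hox pattern of the body site they came from. The proteins bind DNA together with homeodomain partners of the PBX, MEIS and PREP families, and Polycomb and Trithorax proteins keep the clusters silent or active.

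Libraries held 38656497 and 92027838 counts assigned to genes with C/EBPβ and 40912955 and 37566321 with empty vector, so that by library totals 1 count was worth 0.0259, 0.0109, 0.0244 and 0.0266 CPM (counts scaled to a common library size) in that order. Cebpb reached 483 and 473 CPM with C/EBPβ, against 85.0 and 76.8 CPM with empty vector (log2 fold change 2.56, SE 0.09, adjusted p = 3.03e-06). Unless another source is named, adjusted p-values are from edgeR (quasi-likelihood F-test) with the Benjamini-Hochberg method. The 6 markers of myoblasts were all detected, and their summed level was 1518 and 1755 CPM with C/EBPβ against 2694 and 2935 CPM with empty vector, with Myf5 and Pax7 higher and the other 4 lower. The 5 markers of differentiated muscle summed to 24.7 and 39.02 CPM with C/EBPβ and 143 and 142 CPM with empty vector, and all 5 were lower. Of 5 markers of fibroblasts and fibro-adipogenic cells, Pdgfra (log2 fold change 2.57), Col1a1 (2.76) and Dpt (2.61) were higher, Ly6a did not pass and Tcf21 was at 0 in all 4 libraries, with a sum of 1223 and 794 CPM with C/EBPβ against 442 and 387 CPM with empty vector. Of 6 leukocyte markers Tyrobp, Itgam and Adgre1 were at 0, Ptprc was too low to be tested and Csf1r was higher. The sum was 7.47 and 7.69 CPM with C/EBPβ against 5.79 and 5.15 CPM with empty vector. Most of it in each library was Cd68, which did not pass. Of 4 adipocyte markers Fabp4 was tested and was higher, and the sum was 9.96 and 5.51 CPM with C/EBPβ against 0.243 and 0.132 CPM with empty vector. The 5 endothelial markers summed to 0.419 and 0.566 CPM with C/EBPβ and 0.462 and 0.370 CPM with empty vector. The 4 epithelial markers summed to 0.236 and 0.229 CPM with C/EBPβ and 0.851 and 1.19 CPM with empty vector, with Cdh1 lower and Epcam at 0 in all 4 libraries. Except for the endothelial markers, these sums differed between the groups without overlap. The part of the marker levels in the Hox results was not tested. In these bulk samples a smaller number of cells of a type and less RNA per cell cannot be told apart.

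In GRCm38 the Hoxa cluster spans 105.3 kb at chr6:52155590-52260880 on the minus strand, and the Hoxc cluster spans 115.8 kb at chr15:102921103-103036852 on the plus strand. The Hoxb cluster spans 173.9 kb at chr11:96194316-96368256 and the Hoxd cluster 96.83 kb at chr2:74668310-74765142, both on the plus strand. RefSeq start-site windows of GRCm38.p6, which run from 250 bases before a start to 50 after it, were at hand for 22 of the 39 genes in 24 windows. The 8-letter C/EBP sequence TTGCNNAA, or TTNNGCAA on the other strand, was found in 5 of the 24 Hox windows and in 10.8% of all 32851 windows of the table. The 4 genes with a match were Hoxa10, Hoxc4, Hoxd11 and Hoxd12. Counting only the 250 bases before the start, 2 of the 24 Hox windows held a match, beside 9.56% of all windows. The 2 stretches of 30 bases below, read in the direction of transcription, show the matches in the Hoxa and Hoxc clusters, with the matched letters in capitals. The Hoxa10 match begins 6 bases before a start, in a stretch at chr6:52234927-52234956 (minus strand). The Hoxc4 match begins at base 31 after the start, in a stretch at chr15:103034414-103034443 (plus strand). Both stretches overlap an exon of their own gene in the annotation of the count files.
Hoxa10 site: ttcagcatgttTTGCACAAgaaatgtcagc
Hoxc4 site: agccacccatcTTTAGCAAggaaggattgt
Among the genes called higher with C/EBPβ below, Hoxa3, Hoxa6, Hoxa11 and Hoxc4 had a window. Those of Hoxa6 and Hoxa11 are printed because at least 200 of their bases lie before the first annotated exon of the gene: 200 bases of Hoxa6 at chr6:52208723-52208922 (minus strand, 71.0% G or C) and 250 bases of Hoxa11 at chr6:52245811-52246060 (minus strand, 52.0% G or C). The Hoxa6 stretch lies in introns of Hoxa3 and of the antisense gene Hoxaas3, and the Hoxa11 stretch overlaps an exon of the antisense gene Hoxa11os. Matches would stand in capitals, and these letters hold none.
Hoxa6 upstream: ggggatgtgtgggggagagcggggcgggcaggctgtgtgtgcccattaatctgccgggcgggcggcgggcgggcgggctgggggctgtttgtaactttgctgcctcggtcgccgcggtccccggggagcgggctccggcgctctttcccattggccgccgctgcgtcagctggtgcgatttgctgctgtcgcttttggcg
Hoxa11 upstream: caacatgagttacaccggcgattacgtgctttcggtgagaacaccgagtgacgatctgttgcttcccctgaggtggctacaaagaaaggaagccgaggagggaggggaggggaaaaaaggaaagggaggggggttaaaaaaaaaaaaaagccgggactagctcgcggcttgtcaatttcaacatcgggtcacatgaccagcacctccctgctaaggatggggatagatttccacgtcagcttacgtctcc
The palindrome TTGCGCAA, a special case of the first sequence, was in 0 of the 24 Hox windows and in 0.183% of all windows. A Hox-PBX sequence, TGATNNAT or ATNNATCA, was added after the data were seen. It was in 4 of the 24 windows, those of Hoxa2, Hoxb1, Hoxb8 and Hoxd11, and in 8.85% of all windows.

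Nearly all Hox counts in C2C12 myoblasts came from the Hoxa and Hoxc clusters. Of the 39 genes 31 had a count in some library, 8 had none and 22 passed the filter on low counts. All 11 Hoxa and all 9 Hoxc genes had enough counts to be tested, against 2 of 10 Hoxb genes and none of 9 Hoxd genes. Summed over members, Hoxc transcripts reached 264 and 243 CPM with C/EBPβ and 215 and 190 CPM with empty vector. Hoxa transcripts reached 187 and 178 CPM with C/EBPβ and 167 and 143 CPM with empty vector. For both clusters the C/EBPβ libraries lay above the empty vector libraries. Hoxb transcripts summed to 1.65 and 1.68 CPM with C/EBPβ and 1.82 and 1.19 CPM with empty vector, where the groups overlapped. Hoxd transcripts had 0 counts in both C/EBPβ libraries and 2 counts in the empty vector libraries.

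Of all Hox counts, the Hoxc cluster took 58.4% and 57.6% with C/EBPβ and 56.0% and 56.8% with empty vector, and the Hoxa cluster took 41.2% and 42.0% with C/EBPβ and 43.5% and 42.8% with empty vector. The Hoxc share was higher in both C/EBPβ libraries than in either empty vector library.

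**Figure D1:**
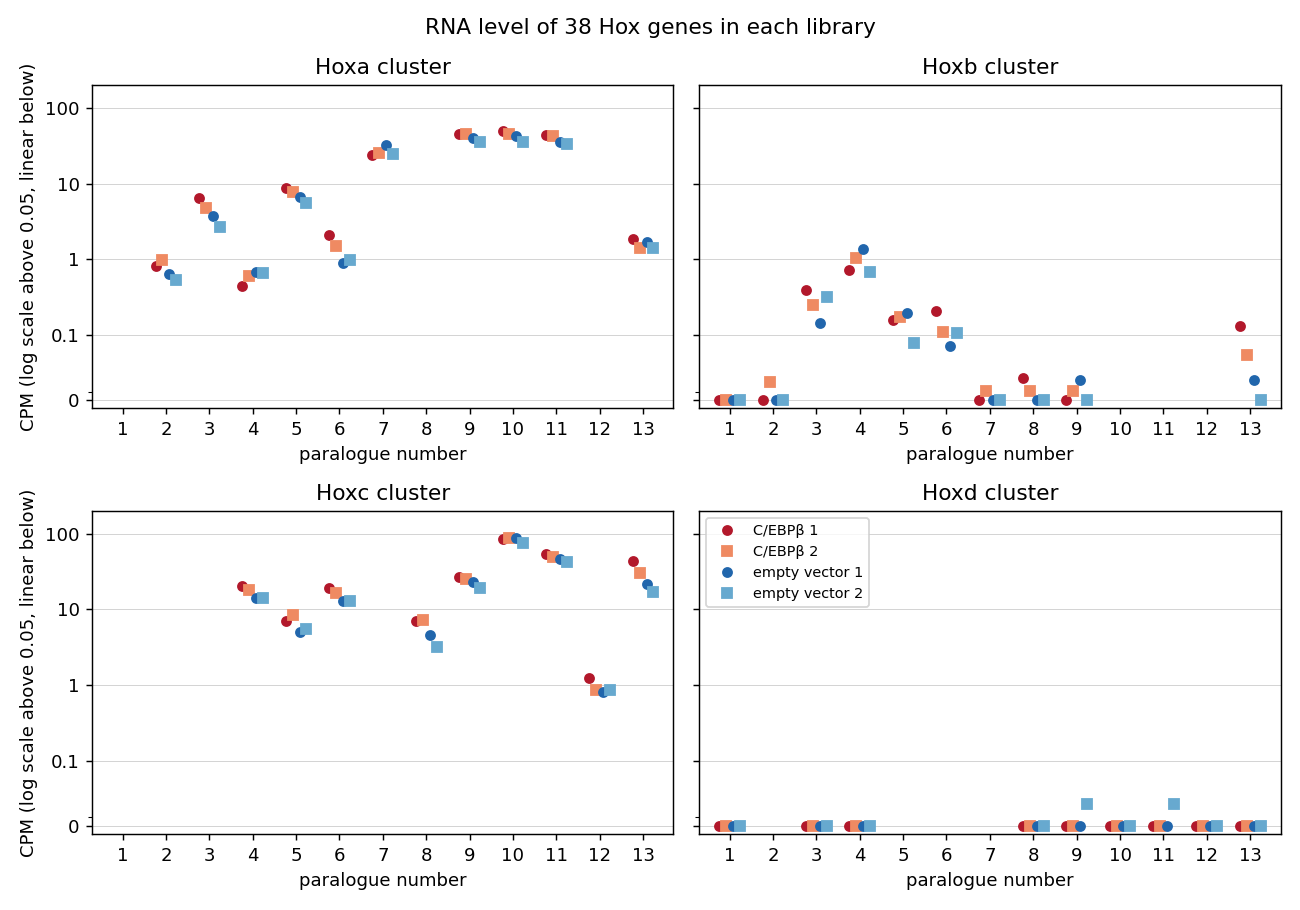
Level of 38 Hox genes in CPM (log scale above 0.05, linear below) against paralogue number, one panel per cluster, with a point for each C/EBPβ library (red) and each empty vector library (blue). Paralogue numbers 9 to 11 stand highest in the Hoxa panel and 10 and 11 in the Hoxc panel, in both groups, and the Hoxd panel holds 2 points above 0, both from empty vector replicate 2.

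Levels per length, in RPKM (CPM per kb of exon), put Hoxc10, Hoxc11 and Hoxa11 on top in both groups. Hoxc10, which helps to specify the lumbar region and the hindlimb, stood first with 45.5 ± 0.906 RPKM with C/EBPβ and 42.3 ± 3.80 RPKM with empty vector (mean ± SD, n = 2 each, as for all RPKM here). Hoxc11 followed with 25.2 ± 1.61 RPKM with C/EBPβ and 21.9 ± 1.71 RPKM with empty vector. Hoxa11, needed with its paralogues for the middle segment of the limb, came next with 18.9 ± 0.731 RPKM with C/EBPβ and 15.01 ± 0.891 RPKM with empty vector. These 3 genes kept their ranks in both groups, and their empty vector values did not overlap with the gene next in order.

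Below them came Hoxa10, Hoxa7, Hoxc9, Hoxc13 and Hoxa9, in this order in both empty vector libraries. Across the libraries, the values of each overlapped with those of the next of these genes. Their empty vector means ran from 11.9 ± 1.32 RPKM for Hoxa10 to 6.75 ± 0.490 RPKM for Hoxa9. Hoxc13 was 4th in the C/EBPβ order with 15.1 ± 3.90 RPKM and 7th in the empty vector order with 7.83 ± 1.31 RPKM. Hoxc4, Hoxc6 and Hoxa5 came after them in both groups, at 7.53, 7.40 and 4.42 RPKM with C/EBPβ and 5.52, 5.35 and 3.25 RPKM with empty vector. The members ranked below these had at most 2.52 RPKM in either group.

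Of the 22 Hox genes tested, 8 were higher with C/EBPβ and 0 were lower, beside 14.1% of all 15078 tested genes called higher, 10.8% called lower and 24.9% called in either direction. At an unadjusted p under 0.05 edgeR had 14 higher and 0 lower, and DESeq2 called 6 higher and 0 lower. Over all 16769 genes with an adjusted p in DESeq2, 1942 were called higher and 1533 lower. No share of all genes was computed at the unadjusted threshold. The counts at that threshold, here and for the lists below, are thus not comparable with the 14.1% and 10.8%. The 8 were Hoxa3, Hoxa6 and Hoxa11 of the Hoxa cluster and Hoxc4, Hoxc5, Hoxc6, Hoxc8 and Hoxc13 of the Hoxc cluster. Log2 fold changes of the 22 ran from -0.31 to 0.94 with a median of 0.36, and 19 were positive, whereas the median of all tested genes was 0.00 and 50.1% were positive. In 15 of the 22 both C/EBPβ libraries lay above both empty vector libraries, an arrangement shown by 33.3% of all tested genes, and in 1, Hoxa4, both lay below. The median was 0.33 in Hoxa and 0.45 in Hoxc, where all 9 genes were positive.

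The count of called members depended on single libraries. Leaving out a C/EBPβ library gave 3 called members (replicate 1) or 6 (replicate 2), and leaving out an empty vector library gave 7 (replicate 1) or 2 (replicate 2). Of the 8 genes above, 3, 6, 4 and 1 were still called in these fits. Hoxc8 alone was called in all 4 fits. The median log2 fold change of the tested members was 0.27, 0.44, 0.42 and 0.32 in the same order. Without empty vector replicate 2 the other gene called was Hoxa7, as lower.

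**Figure D2:**
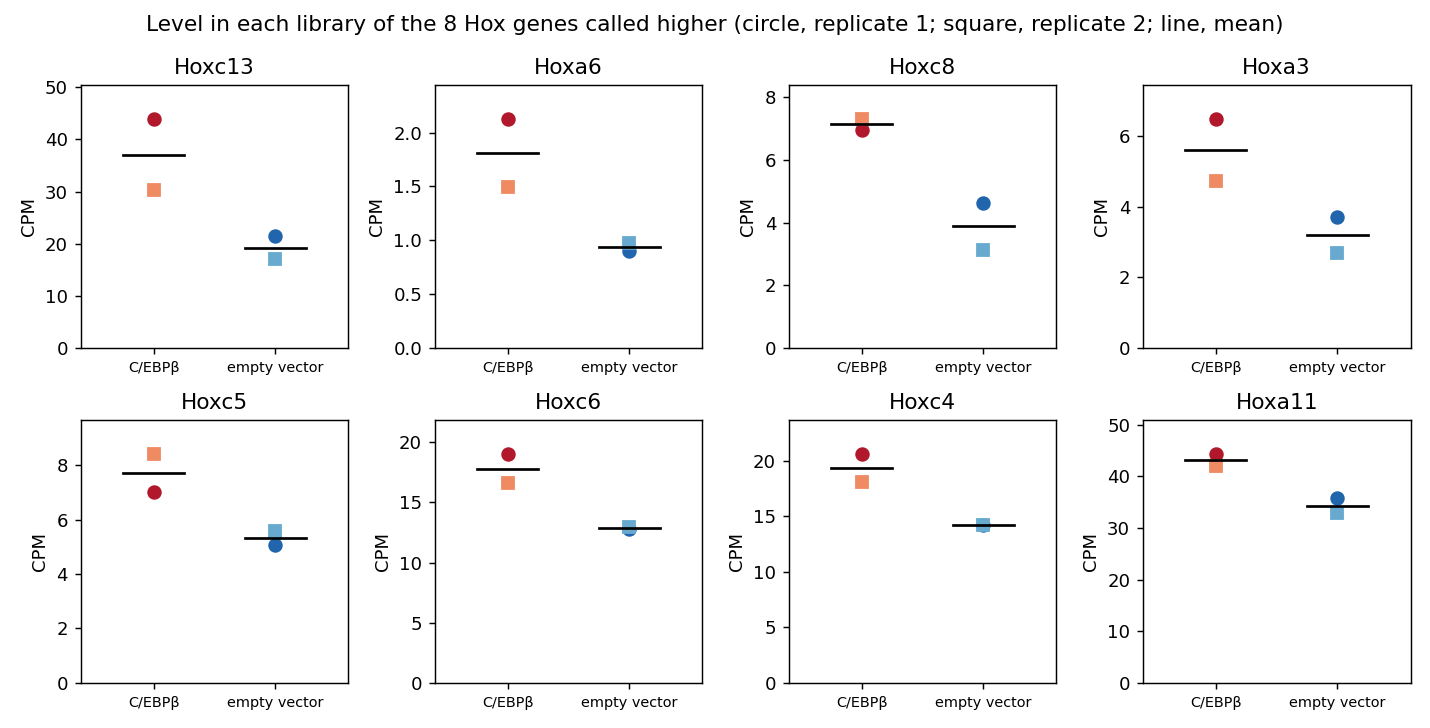
Level in CPM (linear axes from 0) of the 8 Hox genes called higher, in order of log2 fold change, with C/EBPβ libraries on the left and empty vector libraries on the right of each panel (circles, replicate 1; squares, replicate 2; lines, group means). In all 8 panels the lower C/EBPβ library lies above the higher empty vector library, and the gap is widest relative to the level for Hoxc8, Hoxa6 and Hoxc13.

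In the Hoxc cluster the genes called higher lay at both ends and those in between did not pass, though all 9 fold changes were positive. Whether fold changes differed between genes of the cluster was not tested. Hoxc13, a regulator of keratin genes in hair and nail, stands first in the cluster (ENSMUSG00000001655, chr15:102921103-102928814). It had 43.9 and 30.3 CPM with C/EBPβ, against 21.5 and 17.0 CPM with empty vector. Both C/EBPβ values were above both empty vector values, and the C/EBPβ libraries were farther from each other than the empty vector libraries. The log2 fold change was 0.94 (SE 0.18, adjusted p = 0.00676), the largest of the 22, and without empty vector replicate 2 it was 0.77 and the call was lost (adjusted p = 0.0542). The genes that follow it in the cluster, Hoxc12, Hoxc11 and Hoxc10, had smaller fold changes. Hoxc12 had 1.23 and 0.849 CPM with C/EBPβ and 0.802 and 0.872 CPM with empty vector, with overlapping groups (0.27, adjusted p = 0.548).

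Hoxc11, a gene of the hindlimb and the rear of the trunk, had 53.2 and 48.6 CPM with C/EBPβ and 46.7 and 41.8 CPM with empty vector (0.20, adjusted p = 0.166). Hoxc10, the most abundant member, had 85.7 and 88.1 CPM with C/EBPβ and 85.9 and 75.6 CPM with empty vector (0.11, SE 0.09, adjusted p = 0.435). The groups did not overlap for Hoxc11 and overlapped for Hoxc10, and neither gene passed. Hoxc9, which sets the identity of thoracic motor neurons, had 26.7 and 24.9 CPM with C/EBPβ and 22.9 and 18.8 CPM with empty vector (0.31, adjusted p = 0.0991), and it passed without empty vector replicate 1 (0.45, adjusted p = 0.0335).

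The 4 more anterior Hoxc genes were all called higher. Hoxc8 (ENSMUSG00000001657, chr15:102990607-102994111), which acts in the skeleton and motor neurons of the brachial and thoracic region, had 6.97 and 7.30 CPM with C/EBPβ, against 4.62 and 3.15 CPM with empty vector. Its C/EBPβ libraries were close together and both above the empty vector libraries. The log2 fold change was 0.88 (SE 0.19, adjusted p = 0.0122). Hoxc6 (ENSMUSG00000001661, chr15:102998257-103011881), a marker of the thoracic region and of the forelimb level, had 19.03 and 16.6 CPM with C/EBPβ, against 12.8 and 12.98 CPM with empty vector (0.46, SE 0.12, adjusted p = 0.0209). Its groups did not overlap, but it no longer passed once C/EBPβ replicate 1 (0.36, adjusted p = 0.173), empty vector replicate 1 (0.45, adjusted p = 0.0612) or empty vector replicate 2 (0.47, adjusted p = 0.0544) was left out.

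Hoxc5 (ENSMUSG00000022485, chr15:102967443-103017429) and Hoxc4 (ENSMUSG00000075394, chr15:103018934-103036852), the most anterior genes of the cluster, act in the neck and upper trunk. Hoxc5 had 7.00 and 8.41 CPM with C/EBPβ, against 5.08 and 5.58 CPM with empty vector (0.54, SE 0.15, adjusted p = 0.0353). Groups did not overlap, but it no longer passed once C/EBPβ replicate 2 (0.39, adjusted p = 0.227), empty vector replicate 1 (0.47, adjusted p = 0.127) or empty vector replicate 2 (0.61, adjusted p = 0.0670) was left out. DESeq2 did not call it either (0.53, adjusted p = 0.0532). Its annotated gene starts inside Hoxc10 and spans Hoxc9, Hoxc8 and Hoxc6, and 5.37% of its exon length is shared with Hoxc10, where the authors' counting assigned reads to neither gene. Hoxc4 had 20.6 and 18.1 CPM with C/EBPβ, against 14.2 and 14.2 CPM with empty vector (0.45, SE 0.11, adjusted p = 0.0218). The empty vector libraries were nearly equal and below both C/EBPβ libraries. It no longer passed once C/EBPβ replicate 1 (0.35, adjusted p = 0.186), empty vector replicate 1 (0.44, adjusted p = 0.0592) or empty vector replicate 2 (0.44, adjusted p = 0.0587) was left out.

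In the Hoxa cluster the 3 genes called higher, Hoxa11, Hoxa6 and Hoxa3, were not next to each other. Hoxa13, which patterns the distal limb and hindgut, had 1.83 and 1.43 CPM with C/EBPβ and 1.68 and 1.43 CPM with empty vector, with overlapping groups (0.04, adjusted p = 0.919). Hoxa11 (ENSMUSG00000038210, chr6:52242106-52245810) had 44.4 and 42.0 CPM with C/EBPβ, against 35.8 and 32.9 CPM with empty vector. Replicates lay close together in both groups, which did not overlap. The log2 fold change was 0.33 (SE 0.09, adjusted p = 0.0315), and it no longer passed once C/EBPβ replicate 1 (0.29, adjusted p = 0.217), C/EBPβ replicate 2 (0.37, adjusted p = 0.0669) or empty vector replicate 2 (0.27, adjusted p = 0.0925) was left out.

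The abundant neighbours Hoxa10 and Hoxa9 did not pass, though for both the groups did not overlap. Hoxa10, known from the uterus and the lumbar skeleton, had 49.3 and 44.7 CPM with C/EBPβ and 41.9 and 35.8 CPM with empty vector (0.27, adjusted p = 0.0973). Hoxa9, known for its role in blood progenitors and leukaemia, had 45.0 and 44.9 CPM with C/EBPβ and 39.6 and 35.7 CPM with empty vector (0.25, adjusted p = 0.0763). Without empty vector replicate 1 both passed, Hoxa10 at 0.39 (adjusted p = 0.0443) and Hoxa9 at 0.33 (adjusted p = 0.0488). Hoxa7 had the opposite sign to the other abundant members, with 23.5 and 25.6 CPM with C/EBPβ and 32.4 and 24.5 CPM with empty vector. Only empty vector replicate 1 stood apart and the groups overlapped. Its log2 fold change of -0.21 (adjusted p = 0.305) was 0.00094 without empty vector replicate 1 and -0.40 without empty vector replicate 2, where it passed as lower (adjusted p = 0.0430).

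Hoxa6 (ENSMUSG00000043219, chr6:52206288-52208722), the gene next to Hoxa7 and a gene of the cervical and thoracic region, had 2.12 and 1.49 CPM with C/EBPβ, against 0.900 and 0.978 CPM with empty vector. Both C/EBPβ libraries were above both empty vector libraries. The log2 fold change was 0.91 (SE 0.27, adjusted p = 0.0385), and it no longer passed once C/EBPβ replicate 1 (0.67, adjusted p = 0.215), empty vector replicate 1 (0.85, adjusted p = 0.152) or empty vector replicate 2 (0.97, adjusted p = 0.106) was left out. DESeq2 did not call it either (0.93, adjusted p = 0.109). Hoxa5, needed for lung and upper trunk skeleton, had 8.73 and 7.85 CPM with C/EBPβ and 6.66 and 5.55 CPM with empty vector, without overlap (0.43, adjusted p = 0.0702). Hoxa4 was the one member with both C/EBPβ libraries below, at 0.446 and 0.599 CPM with C/EBPβ and 0.681 and 0.661 CPM with empty vector (-0.31, SE 0.30, adjusted p = 0.495).

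Hoxa3 (ENSMUSG00000079560, chr6:52169062-52213336), which acts in the third pharyngeal arch and its thymus and parathyroid derivatives, had 6.47 and 4.73 CPM with C/EBPβ, against 3.70 and 2.70 CPM with empty vector. Both C/EBPβ libraries were above both empty vector libraries. The log2 fold change was 0.79 (SE 0.22, adjusted p = 0.0331), and it no longer passed once C/EBPβ replicate 1 (0.56, adjusted p = 0.111) or empty vector replicate 2 (0.58, adjusted p = 0.146) was left out. Its annotated gene spans Hoxa4, Hoxa5 and Hoxa6, and 8.01% of its exon length is shared with another gene on the same strand. Hoxa2, which patterns the hindbrain and its neural crest, did not pass. It had 0.813 and 0.990 CPM with C/EBPβ and 0.632 and 0.529 CPM with empty vector (0.66, adjusted p = 0.133). Both C/EBPβ libraries were above both empty vector libraries.

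**Figure D3:**
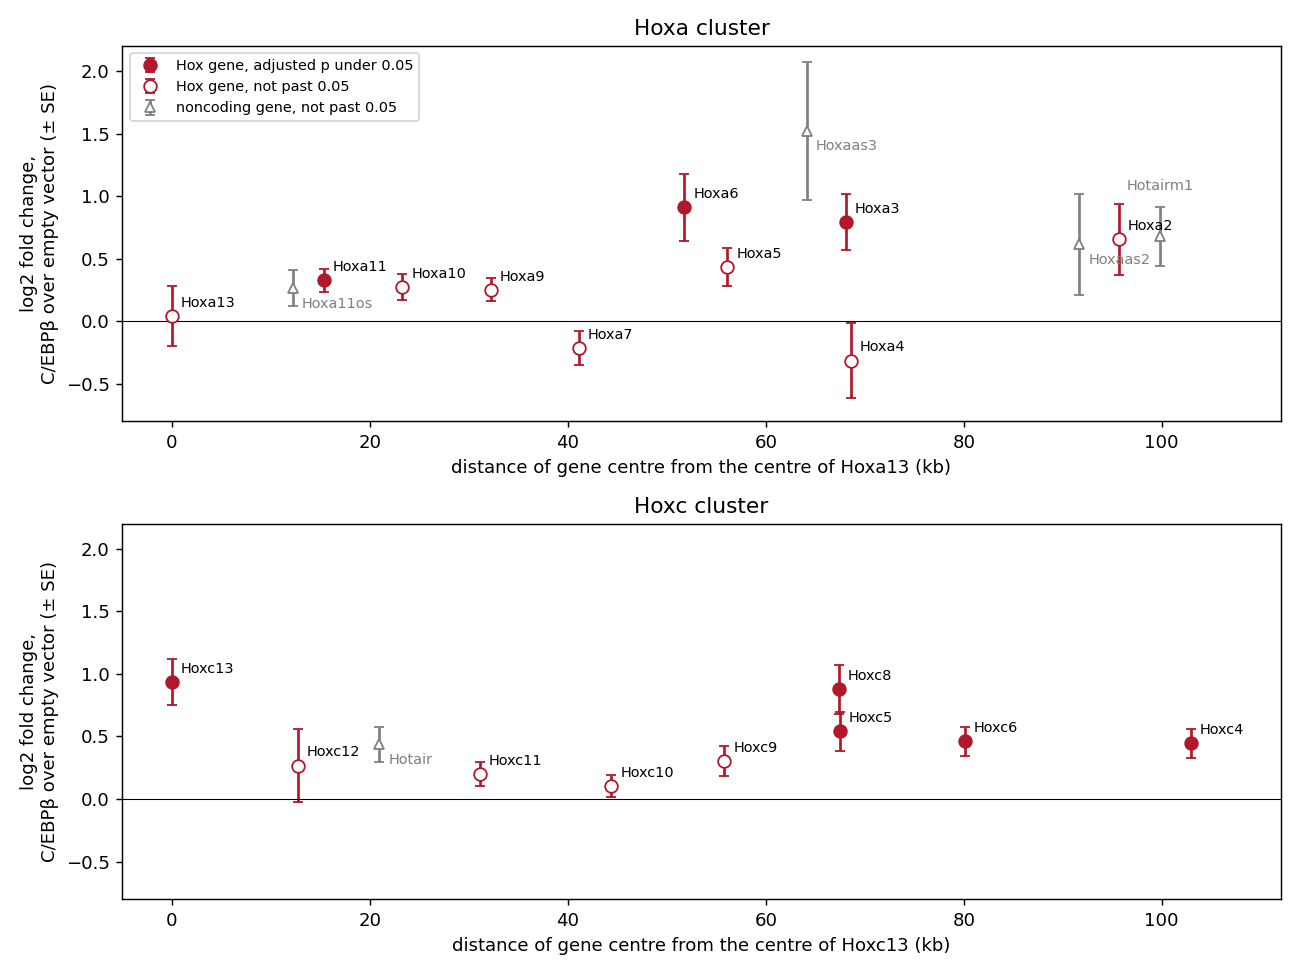
Log2 fold change, C/EBPβ over empty vector, with its standard error, of tested genes of the Hoxa and Hoxc clusters against the distance in kb of the gene's centre from the centre of Hoxa13 or Hoxc13. Filled circles mark Hox genes with an adjusted p under 0.05, open circles other Hox genes and triangles noncoding genes; filled points in the Hoxc panel lie at Hoxc13 and beyond Hoxc9, and Hoxa7 and Hoxa4 are the points below 0. Hoxa3 and Hoxc5 are drawn at the centres of long annotated genes.

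Counts of genes of 1 cluster, set against each other within a library, do not depend on library scaling. The ratio of Hoxc13 to Hoxc11 counts was 0.824 and 0.623 with C/EBPβ and 0.461 and 0.406 with empty vector, and that of Hoxc13 to Hoxc10 was 0.512 and 0.344 with C/EBPβ and 0.251 and 0.225 with empty vector. The ratio of Hoxc8 to Hoxc9 was 0.261 and 0.293 with C/EBPβ and 0.202 and 0.167 with empty vector. For Hoxa6 to Hoxa7 it was 0.0903 and 0.0583 with C/EBPβ and 0.0277 and 0.0399 with empty vector. In each pair the C/EBPβ libraries gave the higher ratios without overlap. These pairs were chosen after the fold changes were seen, with the gene of larger fold change set over the other. The direction of the ratios follows from that choice, and they carry no test.

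By paralogue number, group 13 summed to 45.8 and 31.8 CPM with C/EBPβ and 23.2 and 18.4 CPM with empty vector, nearly all of it Hoxc13. Group 8, which is Hoxc8 with a trace of Hoxb8, had 7.00 and 7.31 CPM with C/EBPβ and 4.62 and 3.15 CPM with empty vector. Group 6, carried by Hoxc6, had 21.4 and 18.2 CPM with C/EBPβ and 13.8 and 14.1 CPM with empty vector. In these 3 groups both C/EBPβ libraries were above both empty vector libraries. The same held for every other paralogue group except 7 and 12. Among single genes, 33.3% of all those tested showed this arrangement. Group 10 stood highest with 135 and 133 CPM with C/EBPβ and 128 and 111 CPM with empty vector, also without overlap. Group 7, which is Hoxa7 with a trace of Hoxb7, had 23.5 and 25.6 CPM with C/EBPβ and 32.4 and 24.5 CPM with empty vector and overlapped. Group 12 had 1.23 and 0.849 CPM with C/EBPβ and 0.802 and 0.872 CPM with empty vector and overlapped as well.

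Of the Hoxb cluster, Hoxb4 and Hoxb3 had enough counts to be tested, and neither passed. Hoxb4, known for expanding blood stem cells, had 0.734 and 1.03 CPM with C/EBPβ and 1.36 and 0.687 CPM with empty vector. Hoxb3 had 0.393 and 0.250 CPM with C/EBPβ and 0.146 and 0.317 CPM with empty vector. The groups overlapped for both genes, with log2 fold changes of -0.18 (adjusted p = 0.762) and 0.40 (adjusted p = 0.603), whose signs turned without empty vector replicate 1 (0.40 for Hoxb4 and -0.067 for Hoxb3). The other Hoxb genes had too few counts for a test. Hoxb5 had 6 and 16 counts with C/EBPβ and 8 and 3 with empty vector, and Hoxb6 had 8 and 10 counts with C/EBPβ and 3 and 4 with empty vector.

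Hoxb13, a gene of the tail region and the prostate, had 5 and 5 counts with C/EBPβ and 1 and 0 with empty vector. Relative to library totals this is a ratio of 6.01, with a 95% counting interval from 0.854 to 261 that covers counting error only. Hoxb2, Hoxb7, Hoxb8 and Hoxb9 had 1 or 2 counts over all libraries, and Hoxb1 had none. In the Hoxd cluster, Hoxd9 and Hoxd11 had 1 count each, both in empty vector replicate 2, and Hoxd1, Hoxd3, Hoxd4, Hoxd8, Hoxd10, Hoxd12 and Hoxd13 had none. A count of 0 over all 4 libraries allows a level of up to 0.0143 CPM, taken as 3 counts of their total. Hoxd3 and Hoxd4 share 62.3% and 52.3% of their exon length with genes on the same strand, where reads were not assigned, so their 0 covers the remainder of their exons.

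**Figure D4:**
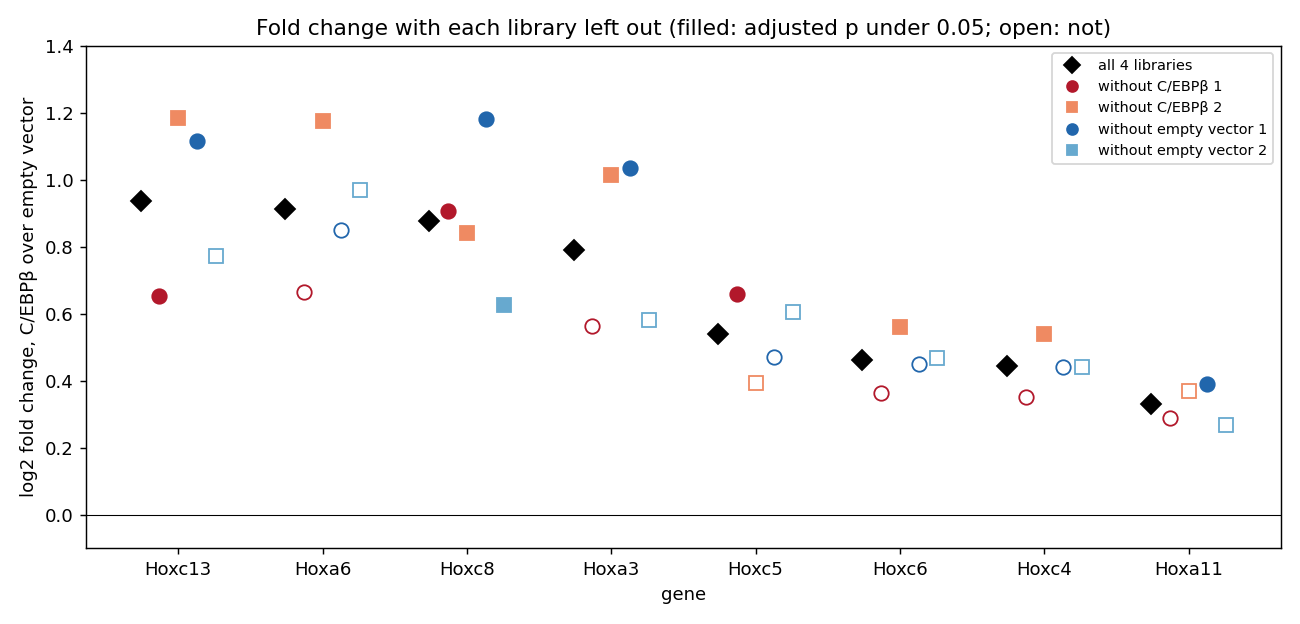
Log2 fold change, C/EBPβ over empty vector, of the 8 called Hox genes with all 4 libraries (black diamonds) and with each library left out (colours), filled where the adjusted p was under 0.05. All values lie above 0, from 0.27 for Hoxa11 without empty vector replicate 2 upward, and Hoxc8 is the one gene with 5 filled points.

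Noncoding genes of the clusters had fold changes of the same sign as most Hox genes, and none passed. Of 11 found, 5 were tested, and each of these 5 had a positive log2 fold change (median 0.61). Among all 15078 tested genes 50.1% were positive. The adjusted edgeR calls took in 14.1% of that whole set as higher and 10.8% as lower. A list of 5 genes is too short for 0 calls to be told apart from these shares. With no adjustment (p under 0.05) edgeR had 3 of the 5 noncoding genes higher, and DESeq2 called 0. Hotair, an RNA antisense to the Hoxc cluster between Hoxc11 and Hoxc12, had 7.18 and 7.01 CPM with C/EBPβ and 4.98 and 5.50 CPM with empty vector, without overlap (0.44, SE 0.14, adjusted p = 0.0568). It passed with no low-count filter (0.45, adjusted p = 0.0393). Hoxa11os, antisense to Hoxa11, had 21.4 and 18.4 CPM with C/EBPβ and 18.5 and 14.5 CPM with empty vector, with overlap (0.27, adjusted p = 0.213). Its count ratio to Hoxa11 was 0.482 and 0.439 with C/EBPβ and 0.516 and 0.442 with empty vector, also overlapping.

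Hotairm1, an RNA antisense to the Hoxa cluster, had 1.47 and 1.49 CPM with C/EBPβ and 0.900 and 0.951 CPM with empty vector (0.68, SE 0.23, adjusted p = 0.0676). Its groups did not overlap, and it passed with no low-count filter (0.69, adjusted p = 0.0458). Hoxaas3 and Hoxaas2, antisense to Hoxa3, had log2 fold changes of 1.52 (SE 0.55, adjusted p = 0.0799) and 0.61 (SE 0.40, adjusted p = 0.310). Both were low. Hoxaas3 had 10 and 29 counts with C/EBPβ and 2 and 6 with empty vector, and Hoxaas2 had 22 and 34 against 10 and 13. The log2 fold change of Hoxaas3 was 0.89 without empty vector replicate 1 and 2.55 without empty vector replicate 2. Hottip, Halr1, Hoxb3os, Hoxb5os, Hoxd3os1 and Haglr were too low to be tested. Libraries were strand-specific and counted by strand, so sense and antisense reads were separated as far as the library preparation allows.

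Partners of Hox proteins on DNA were measured in full, with 9 of 9 TALE homeodomain genes tested, 0 higher, 2 lower and a median log2 fold change of 0.10, beside 14.1% of all tested genes called higher and 10.8% called lower. At an unadjusted p under 0.05 edgeR had 1 higher and 3 lower, and DESeq2 called 0 higher and 2 lower. Meis2, a cofactor active in the proximal limb, fell to 82.5 and 92.4 CPM with C/EBPβ, against 126 and 141 CPM with empty vector (-0.61, SE 0.10, adjusted p = 0.00241). Pknox2, a PREP family gene, fell to 1.63 and 2.02 CPM with C/EBPβ, against 3.84 and 5.05 CPM with empty vector (-1.26, SE 0.21, adjusted p = 0.00348). In both genes the C/EBPβ libraries were below the empty vector libraries, and both were called with any one library left out. Pbx2, Pbx3, Pbx4, Meis1, Meis3 and Pknox1 were among those that did not pass.

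Among 29 Polycomb genes, which encode the complexes that silence Hox clusters, 1 was higher, 3 were lower and 25 did not pass (median -0.02), beside the same 14.1% and 10.8% of all tested genes. DESeq2 called 1 higher and 4 lower, and at an unadjusted p under 0.05 edgeR had 4 higher and 8 lower. The 3 genes called lower by edgeR at the adjusted threshold were Rybp, Phc1 and Eed. Rybp, a subunit of noncanonical complexes, had 8.70 and 8.96 CPM with C/EBPβ and 11.5 and 13 CPM with empty vector (-0.47, adjusted p = 0.0262). Phc1 had -0.33 (adjusted p = 0.0286) and Eed, which reads the silencing mark H3K27me3, had -0.32 (adjusted p = 0.0329). None of these 3 passed once C/EBPβ replicate 1 was left out (Rybp -0.45, adjusted p = 0.0971; Phc1 -0.30, adjusted p = 0.184; Eed -0.25, adjusted p = 0.324) nor once empty vector replicate 2 was left out (-0.39, -0.26 and -0.30 in that order, with adjusted p of 0.0867, 0.0804 and 0.0798). Rybp and Phc1 also missed the threshold with C/EBPβ replicate 2 left out (-0.49, adjusted p = 0.0561, and -0.36, adjusted p = 0.0821), and Eed with empty vector replicate 1 left out (-0.34, adjusted p = 0.0571).

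Of 15 Trithorax and H3K27 demethylase genes, 2 were higher, 0 were lower and 13 did not pass (median 0.02), against 14.1% higher and 10.8% lower over all tested genes, so that the share called higher was near that of all genes. DESeq2 called 4 higher and 0 lower, and at an unadjusted p under 0.05 edgeR had 6 higher and 3 lower. Kdm6b, a demethylase that removes the Polycomb mark, had 115 and 93.5 CPM with C/EBPβ and 65.8 and 82.3 CPM with empty vector (0.49, SE 0.13, adjusted p = 0.0278). Setd1b, an H3K4 methyltransferase, had 50.1 and 40.3 CPM with C/EBPβ and 29.6 and 36.4 CPM with empty vector (0.45, SE 0.14, adjusted p = 0.0433). Neither gene's groups overlapped. With C/EBPβ replicate 1 left out neither passed (0.34, adjusted p = 0.108, and 0.29, adjusted p = 0.228), nor with empty vector replicate 1 left out (0.34, adjusted p = 0.123, and 0.30, adjusted p = 0.190).

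Genes upstream of the Hox clusters did not pass. Of 15 such genes (Cdx factors, retinoid receptors and others) 11 were tested, with 0 higher and 0 lower (14.1% and 10.8% over all tested genes) and a median of 0.17. At an unadjusted p under 0.05 edgeR had 4 higher and 1 lower, and DESeq2 called 0. Rarg, a retinoic acid receptor, had 250 and 243 CPM with C/EBPβ and 216 and 214 CPM with empty vector, without overlap (0.20, SE 0.08, adjusted p = 0.111). Ctcf, which bounds active and silent parts of Hox clusters, had 105 and 111 CPM with C/EBPβ and 116 and 129 CPM with empty vector (-0.17, adjusted p = 0.191). Cdx2 and Cdx4 were at 0 in all 4 libraries.

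Of 26 positional homeobox and T-box genes outside the clusters, 16 were tested. Of these 5 were higher, 1 was lower and 10 did not pass, beside 14.1% of all tested genes called higher and 10.8% called lower, with a median of 0.29. DESeq2 called 4 higher and 0 lower, and 9 were higher and 1 lower at an unadjusted p under 0.05 in edgeR. Tbx18, a T-box factor that patterns the somites, had 59.2 and 58.2 CPM with C/EBPβ and 29.7 and 28.8 CPM with empty vector (1.0, SE 0.08, adjusted p = 0.000109). Tbx3, which acts in limb and mammary development, had 34.6 and 29.5 CPM with C/EBPβ and 16.7 and 14.6 CPM with empty vector (1.03, SE 0.12, adjusted p = 0.000523). Dlx1, a distal-less factor, had 17.5 and 12.02 CPM with C/EBPβ and 7.10 and 5.71 CPM with empty vector (1.19, SE 0.20, adjusted p = 0.00319). For all 3 genes the groups were apart, and all 3 were called with any one library left out.

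Msx2, a homeobox gene of the distal limb, fell to 1.21 and 1.41 CPM with C/EBPβ, against 2.63 and 2.25 CPM with empty vector (-0.88, SE 0.22, adjusted p = 0.0195). It no longer passed once C/EBPβ replicate 1 (-0.79, adjusted p = 0.0629) or empty vector replicate 1 (-0.76, adjusted p = 0.101) was left out. DESeq2 did not call it either (-0.89, adjusted p = 0.0519). The limb-type genes Tbx4 and Tbx5 were too low to be tested, and Pitx1, the hindlimb factor, was at 0 in all 4 libraries.

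Among genes beside the clusters, 20 were found from a list of 23 symbols and 17 were tested. Of these 0 were higher and 3 were lower, beside 14.1% and 10.8% of all tested genes, with a median of -0.13. At an unadjusted p under 0.05 edgeR had 1 higher and 3 lower, and DESeq2 called 0 higher and 2 lower. Next to the Hoxd cluster, Lnpk had 46.9 and 51.1 CPM with C/EBPβ and 53.0 and 54.3 CPM with empty vector, and Mtx2 had 51.4 and 58.7 CPM with C/EBPβ and 63.7 and 57.6 CPM with empty vector. Evx2, a homeobox gene next to Hoxd13, was at 0 in all 4 libraries, and Evx1, next to Hoxa13, had 1 count in all. Transcripts of the Hoxd region were thus near 0 between well-expressed neighbours.

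Chn1, farther out on the Hoxd side, fell to 28.2 and 31.4 CPM with C/EBPβ, against 43.9 and 41.5 CPM with empty vector (-0.52, SE 0.10, adjusted p = 0.00547). Calcoco2, on the Hoxb side, had 0.105 and 0.141 CPM with C/EBPβ and 0.559 and 0.502 CPM with empty vector (-2.02, SE 0.39, adjusted p = 0.00619). Calcoco2 no longer passed once empty vector replicate 1 was left out (-1.94, adjusted p = 0.0575), nor in DESeq2 (-2.08, adjusted p = 0.0583). Skap2, on the Hoxa side, had -0.30 (adjusted p = 0.0424) and lost its call with any library left out. It had the following values once a library was removed: C/EBPβ replicate 1 (-0.22, adjusted p = 0.410), C/EBPβ replicate 2 (-0.39, adjusted p = 0.0534), empty vector replicate 1 (-0.28, adjusted p = 0.0983) and empty vector replicate 2 (-0.32, adjusted p = 0.0650).

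The authors' deposited table of a comparison listed 24 Hox genes, 22 of them with an adjusted p. Of the genes in the authors' deposited table, 6 were positive with an adjusted p under 0.05 (Hoxa3, Hoxa11, Hoxc4, Hoxc6, Hoxc8 and Hoxc13), beside 12.4% of all 16596 genes with an adjusted p there, and 0 were negative. Hoxc13 had the largest value of the family in the authors' deposited table, with a log2 fold change of 0.88 (SE 0.15, adjusted p = 2.68e-08), followed by Hoxc8 with 0.83 (SE 0.21, adjusted p = 0.000776). Hoxa6 and Hoxc5 had adjusted p of 0.0826 and 0.0902 in the authors' deposited table. Signs were the same as those recomputed by DESeq2 from the 4 count files for 24 of 24 genes. The libraries behind the authors' deposited table are not stated there, and its base means for these genes were 0.674 to 1.35 times those recomputed.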

How the data were processed

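The deposited counts are, per the file headers, raw fragment totals for each gene of GENCODE M12, taken by featureCounts 1.5.1 with paired ends and reverse strand set and with multi-mapping and ambiguous reads left out. The submitters' processing notes name HISAT2 2.0.4, GRCm38, featureCounts 1.4.6 (another version than the headers) and DESeq2. Reads in exon parts shared by overlapping genes of 1 strand are missing from both genes. The authors' deposited table holds base means as signal, fold changes and standard errors as log2 values, a score for each gene, and raw and adjusted p-values. It was described and not tested again.

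Groups and replicate numbers came from the sample titles. Symbols were matched by Ensembl ID for 49326 of 49585 genes. Genes were kept by filterByExpr (minimum count 10, minimum total 15), and groups were compared with edgeR 4.0.16 (quasi-likelihood test, TMM, no covariate) in R 4.3.3, with Benjamini-Hochberg adjustment over 15078 genes and calls at 0.05. The fit was first tested on simulated counts. CPM were computed from tested-gene totals and TMM factors, and RPKM from CPM and the deposited exon length. Replicate libraries differed by more than sampling noise (chi-square per gene 25.1 with C/EBPβ and 22.8 with empty vector). Alternatives were median-ratio scaling, library totals, no low-count filter, at least 1 CPM in 2 libraries, DESeq2 1.42.0, a replicate block and leaving out each library.

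Members and lists were chosen with earlier results of these data known. Hox genes of at least 1 CPM in a group mean or called were named, and from each list up to 3 called genes per direction or, where none passed, the 2 most abundant. Other genes named were chosen after their values were seen. Single values of a few genes in these lists are not reported here, though they enter the counts and sums. Start-site windows came from RefSeq (GRCm38.p6).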

Additional observations from a re-analysis of the deposited data

How the results depend on the processing

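Of 8 Hox genes called, 8 were called with median-ratio scaling, library totals or a filter of 1 CPM in 2 libraries, 9 with no low-count filter (Hoxa5 added, adjusted p = 0.0310) and 6 with DESeq2. With a library left out the count ran from 2 to 7, that of all genes from 2493 to 3462 (3759 with 4 libraries), and that of the lists of cofactors, chromatin, upstream, positional, flanking and noncoding genes from 10 to 21 (17 with 4). The lists' count was 30 with no low-count filter. The cause was not tested. Leaving out a library turned the sign of Hoxa13 (-0.13 to 0.24), Hoxb3 (-0.067 to 1.04), Hoxb4 (-0.58 to 0.40) and Hoxa7 (-0.40 to 0.00094), none of them called with 4 libraries. The labels do not say that a replicate number marks a shared culture, and over 12463 genes the differences between replicates correlated between the groups at r = 0.214. With a replicate block 11 Hox genes were called (Hoxa5, Hoxa10 and Hoxc9 added), 4536 of all genes and 31 of the lists, and Hotair passed (adjusted p = 0.0318). Depth limits the untested Hoxb and Hoxd genes, where 3 counts equal 0.0326 to 0.0799 CPM in a library. With 2 libraries per group, 7 of the 8 calls were lost without some library.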
